A study of Mus musculus with 3 samples.

Results

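The hepcidin system was followed through 6 genes, of the 55421 gene identifiers in each library. They are the hepcidin genes Hamp and Hamp2, and Hjv, Tmprss6, Tfr2 and Hfe, whose proteins tell the hepatocyte how much iron the body holds. They were chosen by name for that role and by no rule on their level, though earlier results of these data were known. The liver of 1 wild-type mouse per group was dissociated, and each cell suspension became a 10x Chromium 3′ library of single cells. All 3 mice ate an iron-deficient diet (IDD, 2 to 6 ppm iron) for 1 week. The IDD+HID mouse was then switched to a high-iron diet of 2% carbonyl iron for 18 h, the IDD+HTF mouse received 10 mg of transferrin loaded with iron (holo-Tf), the carrier of iron in plasma, by tail vein, and the IDD mouse, the control, received neither. The labels do not state the time from that injection to collection, nor the age and sex of the mice. Hepatocytes made up 5% of the mixture loaded, and the rest was non-parenchymal cells. With 1 mouse per group no difference could be tested against the spread between mice. Every interval below is a 95% interval of counting error only, and "higher" or "lower" without a further word means at least 1.5-fold.

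Hepcidin is a small peptide hormone that hepatocytes release into blood. It binds the iron exporter ferroportin and has it degraded, so that less iron leaves the gut, the macrophages that recycle red cells and the liver itself. Transcription of Hamp is driven mainly by bone morphogenetic proteins (BMPs), chiefly BMP6 and BMP2 from sinusoidal endothelial cells, which act through SMAD proteins in hepatocytes, and also by interleukin-6 through STAT3 in inflammation. Hemojuvelin, the product of Hjv, is a co-receptor for these BMPs, and matriptase-2, the product of Tmprss6, is a membrane protease that cuts hemojuvelin and so restrains hepcidin. Transferrin receptor 2 (Tfr2) and the MHC class I-like protein HFE (Hfe) take part in sensing holo-Tf. Hamp2 is a mouse paralog of Hamp whose peptide, unlike hepcidin, is not known to control plasma iron.

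Hamp (ENSMUSG00000050440.8) lies on the minus strand of chromosome 7 at chr7:30942368-30944032 of GRCm38, and Hamp2 (ENSMUSG00000056978.8) at chr7:30922372-30924681 on the same strand. Both are overlapped by the annotated gene Gm44662, and 128 of the 31-base words of their transcripts are shared, 33.7% of those of Hamp and 23.1% of those of Hamp2. How the submitters' counting placed reads from such stretches is not stated in the labels, so the split of UMIs (unique molecular identifiers, counted RNA molecules) between Hamp and Hamp2 is uncertain. The sequences upstream of both genes are shown because this stretch holds the letters of the BMP- and STAT-responsive elements described for hepcidin. They are the 250 bases before the RefSeq start of each gene (RefSeq, GRCm38.p6, minus strand, 5′ to 3′). Capitals mark the core of the BMP-responsive element, GGCGCC, or the letters at the aligned place, and the match to the STAT element TTCNNNGAA.
Hamp, chr7:30944030-30944279: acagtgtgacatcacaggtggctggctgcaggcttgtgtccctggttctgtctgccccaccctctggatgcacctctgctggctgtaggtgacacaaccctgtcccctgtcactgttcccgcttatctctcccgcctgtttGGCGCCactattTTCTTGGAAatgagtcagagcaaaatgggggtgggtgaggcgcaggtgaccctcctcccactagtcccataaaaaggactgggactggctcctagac
Hamp2, chr7:30924182-30924431: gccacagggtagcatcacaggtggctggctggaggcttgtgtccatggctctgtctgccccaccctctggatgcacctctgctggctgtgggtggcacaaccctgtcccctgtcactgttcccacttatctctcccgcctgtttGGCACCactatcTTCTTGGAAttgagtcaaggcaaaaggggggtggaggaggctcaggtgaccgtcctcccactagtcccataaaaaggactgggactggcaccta

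The 2 windows shared 227 of 247 aligned bases (91.9%). Hamp held GGCGCC starting 109 bases before its start, and Hamp2 held GGCACC at the aligned place. Both held TTCTTGGAA, starting 97 bases before the start of Hamp and 94 bases before that of Hamp2. Each motif reads the same on both strands, and the 2 do not overlap here. Of 32851 RefSeq windows of 250 bases, 9.59% held GGCGCC and 7.02% held TTCNNNGAA. The Hamp2 window lies inside the first intron of a longer Hamp2 transcript of the annotation. None of the 3 windows of Tfr2 nor that of Hfe held either set of letters, and Hjv and Tmprss6 were not looked at in this way. The other 4 genes are Hjv on chromosome 3 (96525172 to 96529210, plus strand, named Hfe2 in GENCODE M21), Tmprss6 on chromosome 15 (78439667 to 78468634, minus strand), Tfr2 on chromosome 5 (137569840 to 137587481, plus strand) and Hfe on chromosome 13 (23702034 to 23710854, minus strand), all on GRCm38.

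The libraries held 75404660 UMIs (IDD+HID), 55478904 UMIs (IDD+HTF) and 34552858 UMIs (IDD), and 3538, 3202 and 1307 cells were kept in that order. Each pair of libraries shared 1 barcode among its cells, and none was in all 3. Hepatocyte-like cells, named from 10 marker genes such as Alb and Apoa1, numbered 258 in IDD+HID, 1034 in IDD+HTF and 246 in IDD, with median depths of 2237.5, 2153 and 2109 UMIs. None of the 10 hepatocyte markers was at 0 in any library. They fell into 3 clusters, called here by number: cluster 2 led by Pigr and Apoa5 (31, 517 and 111 cells in IDD+HID, IDD+HTF and IDD), cluster 6 led by Apob and Mug1 (53, 321 and 77 cells) and cluster 7 led by Fabp1 and Bhmt, with Hamp among its leading genes (174, 196 and 58 cells). The libraries thus filled the clusters unequally, and cluster 7 held most hepatocyte-like cells of IDD+HID but few of the others. The state of the RNA differed too. Ribosomal RNA took 6.60% of the UMIs of hepatocyte-like cells in IDD+HID, 29.9% in IDD+HTF and 26.8% in IDD. The nuclear RNA Malat1 stood at 1266, 638 and 81.3 counts in every 1000000 UMIs (CPM) of hepatocyte-like cells in the same order, against 13912, 19855 and 21114 CPM in sinusoidal endothelial-like cells. Summed markers of Kupffer cells stood at 462, 144 and 43.7 CPM in hepatocyte-like cells, and those of sinusoidal endothelial cells at 510, 192 and 30.1 CPM. The part of these differences in the results below was not tested, except where values within a cluster or outside the cells are given.

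Hamp was far higher in IDD+HID than in either other library. In hepatocyte-like cells it reached 4051 CPM in IDD+HID (3925 to 4180, 3905 UMIs), 521 CPM in IDD+HTF (494 to 548, 1451 UMIs) and 727 CPM in IDD (664 to 795, 483 UMIs). The intervals of the 3 libraries do not overlap. The ratio was 5.57 (5.07 to 6.13) for IDD+HID over IDD and 7.78 (7.32 to 8.27) for IDD+HID over IDD+HTF. In the second of these comparisons 61.1% of 4236 genes were higher in IDD+HID and 15.6% lower. Such ratios must be read against all genes, because 64.0% of the 2735 genes measured in hepatocyte-like cells were at least 1.5-fold higher in IDD+HID than in IDD and 12.3% were lower, with a median log2 ratio of 0.96. Scaling by trimmed means (TMM) took that median to 0.06, with 672 genes higher and 805 lower in place of 1751 and 337. Under that scaling the log2 ratio of Hamp for IDD+HID over IDD was 1.58, against 2.48 per UMI.

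Hamp was also found in more hepatocyte-like cells of IDD+HID. At least 1 Hamp UMI was seen in 227 of 258 cells of IDD+HID (88.0%), 366 of 1034 cells of IDD+HTF (35.4%) and 43 of 246 cells of IDD (17.5%). With every cell thinned to 1000 UMIs the shares were 78.2% (72.6 to 83.1), 21.5% (19.0 to 24.1) and 11.3% (7.61 to 15.9). B-like cells, which do not make hepcidin, gave thinned shares of 2.99%, 1.71% and 0.445% with median depths of 4557, 3600.5 and 4046.5 UMIs. The shares in hepatocyte-like cells of all 3 libraries lay above those of B-like cells. The free RNA held by hepatocyte-like cells was not measured, so B-like cells cannot show the share it gives there. Cells with 5 or more Hamp UMIs made up 51.6% of hepatocyte-like cells in IDD+HID, 6.09% in IDD+HTF and 4.07% in IDD. The median cell held 5 Hamp UMIs in IDD+HID and 0 in each of the other libraries.

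**Figure D1:**
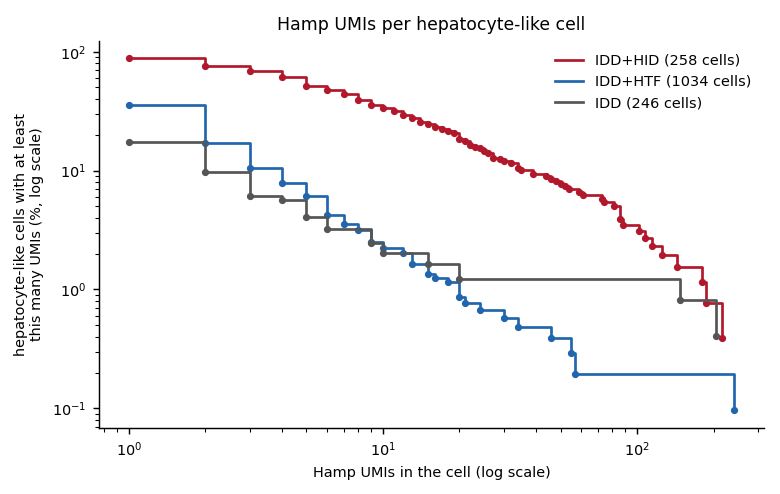
Hamp UMIs in each hepatocyte-like cell of IDD+HID, IDD+HTF and IDD. Most cells of IDD+HID hold Hamp UMIs, whereas most cells of IDD+HTF and IDD hold none and a few cells of IDD hold most of that library's Hamp.

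The comparison of IDD+HTF with IDD turned on 2 cells. Over all hepatocyte-like cells the ratio of Hamp for IDD+HTF over IDD was 0.72 (0.65 to 0.79), which is under the 1.5-fold limit. In this comparison 18.3% of 3544 measured genes were higher in IDD+HTF and 14.4% were lower, with a median log2 ratio of -0.03. The richest IDD cell held 204 and the next 147 of the 483 Hamp UMIs of that library, both in cluster 7. The richest cells held 241 and 57 of 1451 Hamp UMIs in IDD+HTF, and 216 and 187 of 3905 in IDD+HID. The richest cell was deep in each library, with 82565 UMIs in IDD+HID, 20034 UMIs in IDD+HTF and 16737 UMIs in IDD, and none of the 3 was marked as a doublet by a caller that did not work for IDD+HID and IDD+HTF. Without the richest cell of each library, the level was 4186 CPM in IDD+HID, 437 CPM in IDD+HTF, against 431 CPM in IDD, and IDD+HTF over IDD was 1.01 (0.89 to 1.16). Without the 2 richest cells of each library the level was 4027, 418 and 206 CPM in the same order. The ratio was then 19.5 (16.4 to 23.4) for IDD+HID over IDD, 2.03 (1.69 to 2.45) for IDD+HTF over IDD and 9.63 (9.01 to 10.3) for IDD+HID over IDD+HTF. The direction for IDD+HTF against IDD thus changed with the removal of 2 cells per library, a step chosen after the values were seen, while IDD+HID stayed highest.

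Within clusters the same order of IDD+HID over the others was seen. Hamp stood at 1227 CPM in IDD+HID, 187 CPM in IDD+HTF, against 82.7 CPM in IDD in cluster 2. In cluster 6 it stood at 1755, 283 and 95.7 CPM, and in cluster 7 at 4739, 1752 and 2376 CPM, in the same order. IDD+HID over IDD was 14.8 (8.80 to 26.4) in cluster 2, 18.3 (12.1 to 28.8) in cluster 6 and 1.99 (1.81 to 2.21) in cluster 7. The share of measured genes that were higher in IDD+HID than in IDD was 30.1% in cluster 2, 18.8% in cluster 6 and 39.2% in cluster 7. IDD+HTF over IDD was 2.26 (1.40 to 3.89) in cluster 2, 2.95 (1.96 to 4.64) in cluster 6 and 0.74 (0.66 to 0.83) in cluster 7, and 29.5%, 16.9% and 20.4% of measured genes were higher there in the same order of clusters. The Hamp levels of IDD+HTF and IDD in cluster 2 were near those of free RNA in droplets, given below. The part of free RNA in the cluster levels was not tested. Without the 2 richest cells of each library, cluster 7 gave 8.68 (7.03 to 10.8) for IDD+HID over IDD and 2.27 (1.82 to 2.87) for IDD+HTF over IDD. Hamp and the other members and pathway genes were left out of the clustering, so Hamp did not place cells in cluster 7.

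Droplets and whole libraries gave that order with no choice of cells. In droplets of 100 or fewer UMIs, which hold free RNA and in which fewer hepatocytes and less RNA per hepatocyte cannot be told apart, Hamp stood at 412 CPM in IDD+HID, 179 CPM in IDD+HTF, against 73.7 CPM in IDD. The ratio was 5.59 for IDD+HID over IDD and 2.42 (2.07 to 2.83) for IDD+HTF over IDD. Most genes share that direction in the droplets: 74.2% of 6719 genes were higher in IDD+HID than in IDD, and 70.9% of 6143 were higher in IDD+HTF than in IDD. Hamp in cluster 2 stood near the droplet levels in IDD+HTF and IDD, at 187 and 82.7 CPM. In cluster 6 it stood at 283 and 95.7 CPM in these libraries. Over all barcodes of a library Hamp was at 284, 93.1 and 46.6 CPM, which is 6.09-fold for IDD+HID over IDD and 2.00-fold for IDD+HTF over IDD. Set against Alb, the albumin transcript and the main sign of hepatocyte RNA, Hamp gave 41.0 UMIs per 1000 Alb UMIs over all barcodes of IDD+HID, 18.4 in IDD+HTF and 13.1 in IDD. In droplets it gave 36.3, 22.4 and 15.8 per 1000 Alb UMIs, and in hepatocyte-like cells 141, 25.1 and 30.5. The droplets and the whole libraries thus share the order IDD+HID, IDD+HTF, IDD, from high to low. In hepatocyte-like cells IDD+HTF lay below IDD with all cells counted. By CPM it was level with IDD without the richest cell of each library, and above IDD without the 2 richest.

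**Figure D2:**
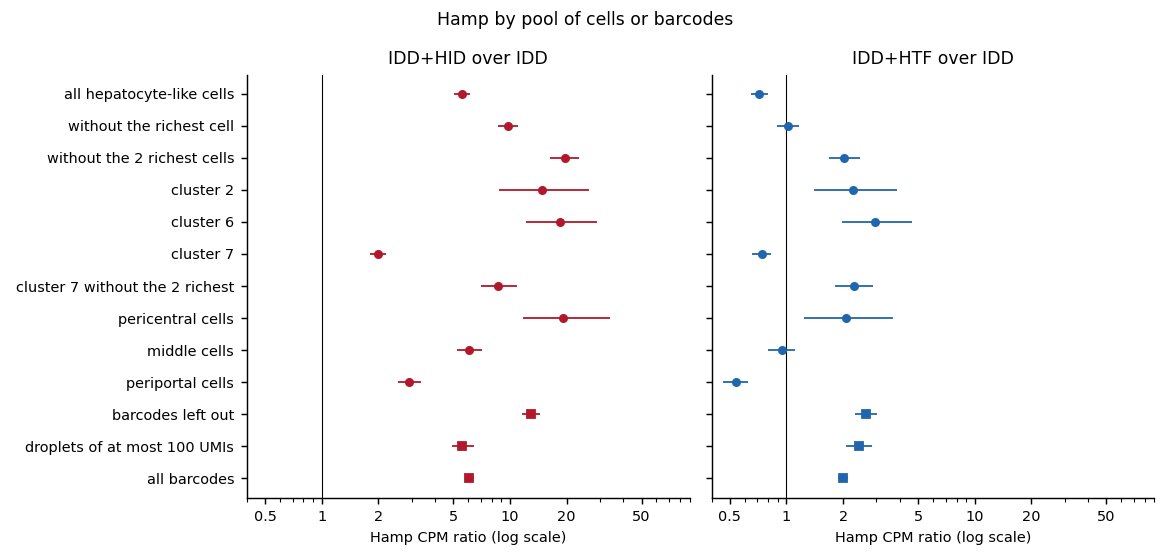
Ratio of Hamp CPM on a log axis, with 95% counting intervals, for IDD+HID over IDD and IDD+HTF over IDD in hepatocyte-like cells, with and without the richest cells, in each cluster and zone (circles), and in barcodes left out, droplets and all barcodes (squares). IDD+HID over IDD lies above 1 throughout, whereas IDD+HTF over IDD is 0.72 in all hepatocyte-like cells, 2.03 without the 2 richest and 2.00 over all barcodes.

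Hamp was lower in the other cell classes, and in most of them near or below what free RNA would bring. The droplets' Hamp-to-Alb ratio and a class's own Alb give an expected level. Sinusoidal endothelial-like cells had 31.6 CPM of Hamp in IDD+HID, 9.80 CPM in IDD+HTF, against 8.19 CPM in IDD, and the expected levels were 24.6, 11.0 and 5.59 CPM. Kupffer-like cells had 16.6, 5.19 and 4.05 CPM, with 15.3, 6.48 and 1.52 CPM expected. In IDD+HID, vascular endothelial-like cells had 51.8 CPM (40.3 to 65.5), with 29.2 CPM expected. In the same library, plasmacytoid dendritic-like cells had 37.5 CPM (28.2 to 49.0), with 19.1 CPM expected. The sums of these classes thus exceeded the expected level by 1.77-fold and 1.97-fold. A single plasmacytoid dendritic-like cell held 21 of the 54 Hamp UMIs of its class, and the excess without that cell was not tested. Hepatocyte-like cells exceeded the droplets 9.82-fold in IDD+HID, 2.92-fold in IDD+HTF and 9.87-fold in IDD. They held 80.6%, 90.8% and 93.2% of the Hamp UMIs found in cells of IDD+HID, IDD+HTF and IDD.

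**Figure D3:**
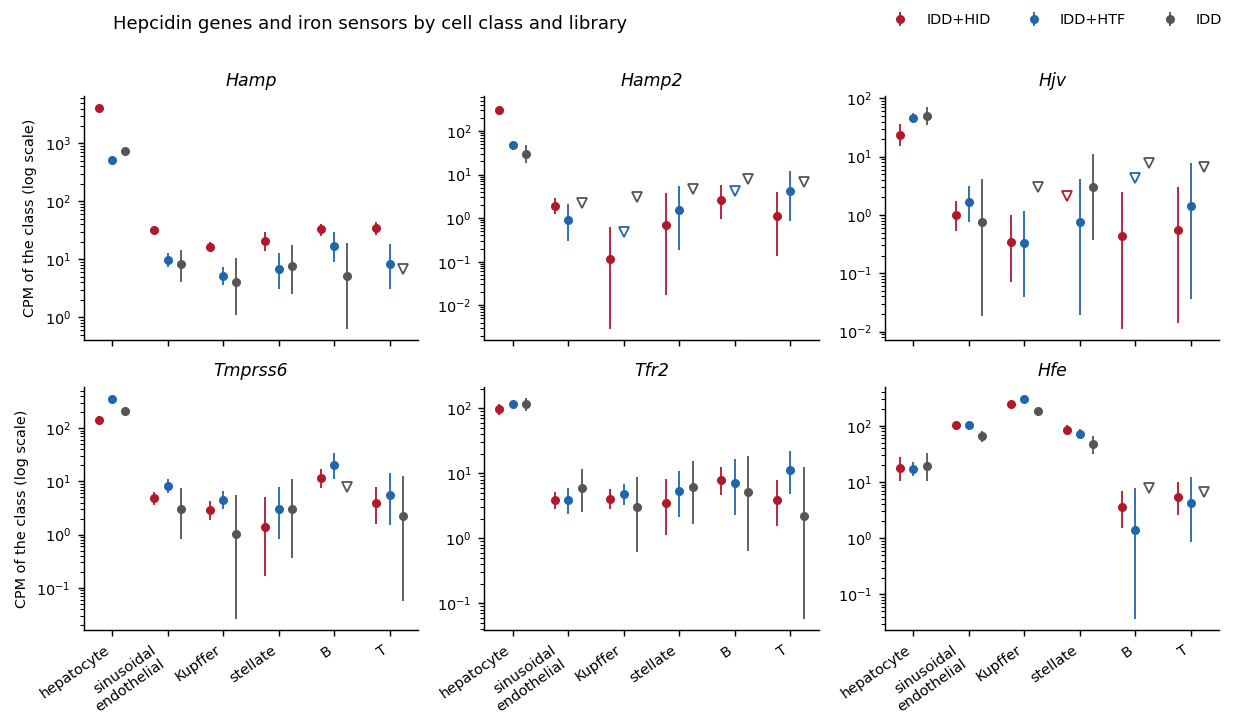
CPM of the 6 genes on log axes in hepatocyte-, sinusoidal endothelial-, Kupffer-, stellate-, B- and T-like cells of IDD+HID, IDD+HTF and IDD. Bars are 95% counting intervals, and open triangles mark the upper limit (3 counts) where no UMI was seen. The hepcidin genes, Hjv, Tmprss6 and Tfr2 stand highest in hepatocyte-like cells, and Hfe stands highest in Kupffer-like cells.

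Along the lobule, the CPM of Hamp was lowest in pericentral hepatocyte-like cells of all 3 libraries, but the share of cells without Hamp did not follow that order. Blood enters the lobule at the portal vein and leaves at the central vein, and hepatocytes change their enzymes along that path. Of 1538 hepatocyte-like cells, 1090 had at least 5 UMIs of zone markers and were divided into 3 zones of equal cell number by the share of periportal marker UMIs, with limits at 0.778 and 0.972. Since 573 of them lay within 0.05 of a limit, the zones are ranges and not types. Hamp stood at 2693 CPM in pericentral, 5265 CPM in middle and 4057 CPM in periportal cells of IDD+HID. It stood at 289, 816 and 746 CPM in IDD+HTF, and at 140, 865 and 1388 CPM in IDD, in the same order of zones. Periportal over pericentral was 1.51 (1.37 to 1.66) in IDD+HID, 2.58 (2.18 to 3.06) in IDD+HTF and 9.91 (5.99 to 17.6) in IDD. The ratio in IDD fell to 3.33 (1.78 to 6.78) without the richest cell of each zone, against 1.43 in IDD+HID and 2.43 in IDD+HTF. IDD+HID over IDD was 19.2 in pericentral, 6.08 in middle and 2.92 in periportal cells. IDD+HTF over IDD was 2.07, 0.94 and 0.54 in the same order of zones, and 2.56, 2.67 and 1.87, each with an interval above 1, without the richest cell of each zone and library. Different clusters filled the zones: cluster 7 held 53 of 59 periportal cells of IDD+HID, 83 of 229 of IDD+HTF and 29 of 73 of IDD. In cluster 2 of IDD+HTF, 153 pericentral cells held 96 Hamp UMIs and 44 periportal cells held 24. In cluster 6 of that library, 53 pericentral cells held 65 and 102 periportal cells held 84. In its cluster 7, 27 pericentral cells held 33 and 83 periportal cells held 389. These counts are not scaled by depth.

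**Figure D4:**
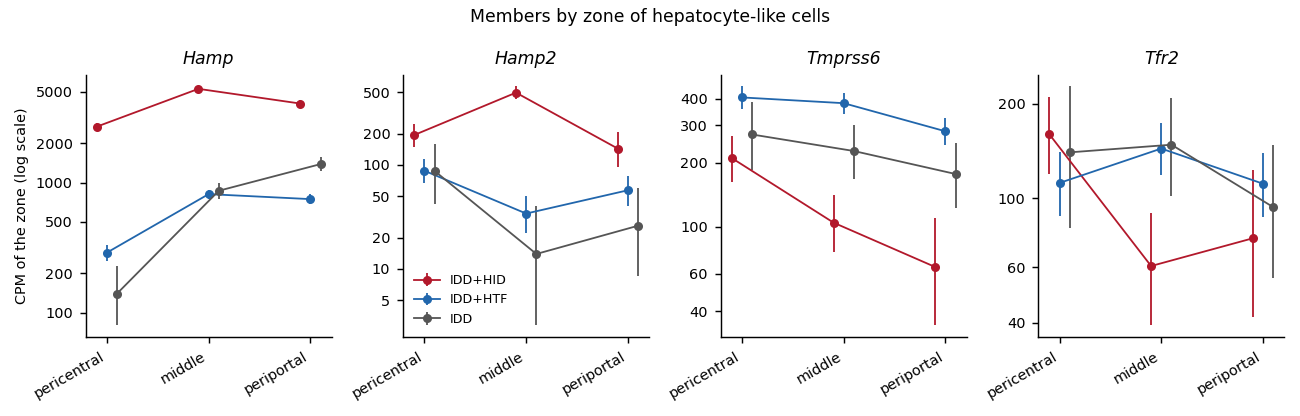
CPM of Hamp, Hamp2, Tmprss6 and Tfr2 in pericentral, middle and periportal hepatocyte-like cells of IDD+HID, IDD+HTF and IDD, on log axes, with 95% counting intervals. Hamp is lowest in pericentral cells of each library, at 2693, 289 and 140 CPM.

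Hamp2 was also highest in IDD+HID. It stood at 310 CPM in hepatocyte-like cells of IDD+HID (276 to 347, 299 UMIs), 48.4 CPM in IDD+HTF (40.6 to 57.3, 135 UMIs) and 30.1 CPM in IDD (18.4 to 46.5, 20 UMIs). The ratio was 10.3 (6.55 to 17.1) for IDD+HID over IDD, 1.61 (1.00 to 2.72) for IDD+HTF over IDD and 6.40 (5.21 to 7.91) for IDD+HID over IDD+HTF. Few cells carried it: 53 of 258 cells of IDD+HID, 51 of 1034 of IDD+HTF and 13 of 246 of IDD had a Hamp2 UMI. In IDD+HID 2 cells held 87 and 80 of the 299 Hamp2 UMIs, beside 30 and 20 Hamp UMIs. Without the 2 richest cells of each library IDD+HID over IDD was 6.55 (3.77 to 12.3) and IDD+HTF over IDD was 1.42 (0.80 to 2.71). By cluster IDD+HTF over IDD ran both ways, 4.62 in cluster 7 and 0.50 in cluster 6. Over all barcodes Hamp2 was at 21.5, 10.1 and 4.05 CPM in IDD+HID, IDD+HTF and IDD.

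Hamp2 lay otherwise along the lobule than Hamp in IDD+HTF, and its zones in IDD+HID depended on how the cells were divided and on 2 cells. Periportal over pericentral Hamp2 was 0.74 (0.46 to 1.17) in IDD+HID, 0.65 (0.42 to 0.99) in IDD+HTF and 0.30 (0.08 to 0.95) in IDD. With zones of equal cell number within each library it was 1.55 (1.10 to 2.23), 0.65 (0.42 to 0.998) and 0.56 (0.15 to 1.79), and with cells divided at the median 1.91 (1.48 to 2.49), 0.51 (0.34 to 0.74) and 0.55 (0.19 to 1.53), in the same order of libraries. Middle over pericentral was 2.56 (1.92 to 3.46) in IDD+HID and 0.39 (0.23 to 0.62) in IDD+HTF. The IDD+HID cells with 87 and 80 Hamp2 UMIs both lay in the middle zone, which held 205. Without the 2 richest cells of each zone and library, Hamp2 in IDD+HID stood at 138 CPM in pericentral and 95.7 CPM in middle cells. In IDD+HTF it then stood at 40.5 CPM in pericentral and 19.8 CPM in middle cells. The value of IDD rests on 5 periportal and 10 pericentral Hamp2 UMIs. There were 13.1 Hamp UMIs per Hamp2 UMI in hepatocyte-like cells of IDD+HID (11.6 to 14.7), 10.7 in IDD+HTF (9.01 to 12.9), against 24.2 in IDD (15.5 to 39.9). These are ratios of counted 3′ ends with no scaling by length, and that of IDD includes the 2 cells rich in Hamp. Over all barcodes the ratio was 13.2, 9.18 and 11.5 in the same order. In IDD+HTF, 29 of 51 cells with Hamp2 also held Hamp (56.9%), against 337 of 983 cells without Hamp2 (34.3%), with median depths of 3130 and 2147 UMIs. A cluster with no name of its own, number 23, was led by genes of pancreatic digestive enzymes such as Ctrb1 and Prss2. It had 7 cells in IDD+HTF and 1 in IDD. Hamp2 was present in 7 of these 8 cells, at 287 CPM (196 to 405, 32 UMIs), and Hamp had 0 UMIs, which allows up to 26.9 CPM. This cluster was singled out after its values were seen.

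Hjv, the BMP co-receptor, was lower in IDD+HID. It stood at 23.9 CPM in hepatocyte-like cells of IDD+HID (23 UMIs), 46.3 CPM in IDD+HTF (129 UMIs) and 49.7 CPM in IDD (33 UMIs). The ratio was 0.48 (0.27 to 0.84) for IDD+HID over IDD, 0.52 (0.32 to 0.81) for IDD+HID over IDD+HTF and 0.93 (0.63 to 1.41) for IDD+HTF over IDD. IDD+HID over IDD was 0.58, 0.55 and 0.79 in clusters 2, 6 and 7, on few UMIs, where 17.0%, 25.9% and 8.41% of measured genes were lower. It was 0.48 (0.36 to 0.64) in barcodes of 1000 or more UMIs that the filters left out. Over all barcodes it was 0.41 (0.35 to 0.48), from 323 UMIs in IDD+HID and 360 UMIs in IDD. Per 1000 Alb UMIs over all barcodes Hjv gave 0.619 in IDD+HID, 2.21 in IDD+HTF and 2.94 in IDD. Droplets gave 0.832, 2.64 and 2.67 in the same order, so IDD+HID was lowest there as well.

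Tmprss6, the protease that cuts hemojuvelin, was highest in IDD+HTF. It stood at 141 CPM in hepatocyte-like cells of IDD+HID (118 to 167), 348 CPM in IDD+HTF (326 to 370) and 209 CPM in IDD (176 to 247). The ratio was 1.66 (1.39 to 2.00) for IDD+HTF over IDD, 0.67 (0.53 to 0.86) for IDD+HID over IDD and 0.41 (0.34 to 0.49) for IDD+HID over IDD+HTF. With every cell thinned to 1000 UMIs, Tmprss6 was seen in 12.9% of hepatocyte-like cells of IDD+HID, 26.1% of IDD+HTF and 19.5% of IDD. The same shares in sinusoidal endothelial-like cells were 0.543%, 1.06% and 0.233%, with median depths of 10252.5, 6456.5 and 3560.5 UMIs. Within clusters IDD+HTF over IDD was 1.55, 1.59 and 1.02 in clusters 2, 6 and 7. IDD+HID over IDD turned round in clusters 2 and 6, at 1.88 (1.11 to 3.13) and 1.41 (1.00 to 1.96). The value for cluster 7 was 1.20 (0.58 to 2.80). There 20 of the 44 Tmprss6 UMIs of IDD+HID lay in a single cell. It is the cell of 82565 UMIs that also held 216 Hamp, 14 Tfr2 and 4 Hjv UMIs. Without the richest cell of each library, cluster 7 of IDD+HID stood at 35.8 CPM, slightly below the 38.8 CPM of IDD. Cluster 7, which holds most cells of IDD+HID, carried the least Tmprss6, at 58.4 CPM in IDD+HID, 49.3 CPM in IDD+HTF, against 48.6 CPM in IDD. Hepatocyte-like cells as a whole exceeded the droplets 1.44-fold, 2.04-fold and 3.26-fold in that order. Cluster 7 lay below the droplets in each library, and so did periportal cells of IDD+HID. The part of free RNA in these values was not tested. Hepatocyte-like cells held 45.0%, 88.2% and 87.4% of the Tmprss6 UMIs in cells, in the same order. Per 1000 Alb UMIs over all barcodes, which need no clusters, Tmprss6 gave 6.00 in IDD+HID, 18.3 in IDD+HTF and 13.6 in IDD. Droplets gave 8.64, 21.4 and 13.7 in the same order. By CPM, however, droplets put IDD+HID 1.53-fold above IDD, so the direction for IDD+HID against IDD rests on the scale. Periportal over pericentral was 0.31 (0.16 to 0.56) in IDD+HID, 0.69 (0.57 to 0.84) in IDD+HTF and 0.65 (0.39 to 1.10) in IDD.

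Tfr2, the hepatocyte receptor for holo-Tf, differed by less than 1.5-fold per UMI over all hepatocyte-like cells, but was lower in IDD+HID with TMM. It stood at 96.5 CPM in IDD+HID (93 UMIs), 118 CPM in IDD+HTF (330 UMIs) and 116 CPM in IDD (77 UMIs). The ratio was 0.83 (0.61 to 1.14) for IDD+HID over IDD and 1.02 (0.79 to 1.33) for IDD+HTF over IDD. With TMM the log2 ratio of Tfr2 was -1.16 for IDD+HID over IDD, against -0.27 per UMI, and -1.31 for IDD+HID over IDD+HTF, against -0.30 per UMI. The same scaling took IDD+HID over IDD to -1.96 for Hjv, against -1.06 per UMI, and to -1.47 for Tmprss6, against -0.57 per UMI. Per UMI, IDD+HID over IDD for Tfr2 was 0.83, 1.76 and 2.87 in clusters 2, 6 and 7, and 0.41 in the middle zone, so its direction too changed with the cells chosen. The value of cluster 2 rests on 5 Tfr2 UMIs in IDD+HID and 21 in IDD. That of cluster 7 rests on 35 UMIs in IDD+HID, of which the same cell of 82565 UMIs held 14, and 3 in IDD. Per 1000 Alb UMIs over all barcodes Tfr2 gave 4.54 in IDD+HID, 5.78 in IDD+HTF and 5.66 in IDD. Tfr2 in hepatocyte-like cells exceeded the droplets 1.63-fold, 2.00-fold and 4.24-fold in the same order. These cells held 37.5%, 77.6% and 75.5% of the Tfr2 UMIs in cells. In cluster 7 Tfr2 lay below the droplets in each library, and the part of free RNA there was not tested.

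**Figure D5:**
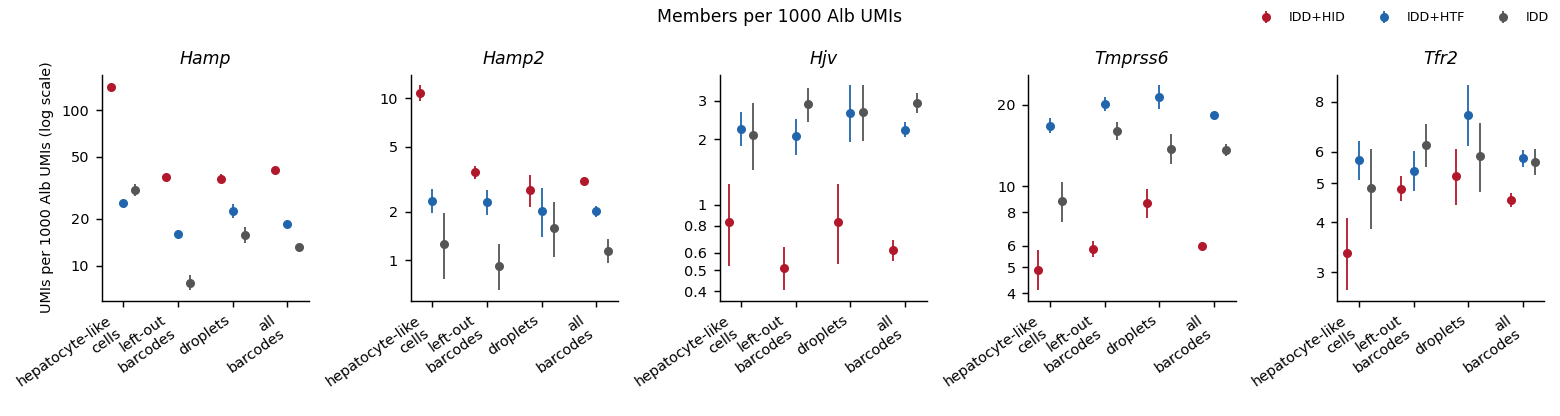
UMIs of Hamp, Hamp2, Hjv, Tmprss6 and Tfr2 per 1000 UMIs of Alb in hepatocyte-like cells, barcodes left out by the filters, droplets and all barcodes of IDD+HID, IDD+HTF and IDD, on log axes, with 95% counting intervals. Hamp is highest and Hjv and Tmprss6 are lowest in IDD+HID in each of these pools.

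Hfe lay mainly outside the hepatocytes. In hepatocyte-like cells it stood at 17.6 CPM in IDD+HID (17 UMIs), 17.2 CPM in IDD+HTF (48 UMIs) and 19.6 CPM in IDD (13 UMIs). That is 0.38, 0.41 and 1.23 times the level in the droplets, so free RNA and transcripts of these cells cannot be told apart. Only 0.393%, 1.66% and 2.81% of the Hfe UMIs in cells lay in hepatocyte-like cells, and 49.7%, 64.0% and 40.0% lay in Kupffer-like cells, the resident macrophages of the liver. Kupffer-like cells had 245 CPM of Hfe in IDD+HID (235 to 256), 299 CPM in IDD+HTF (286 to 313) and 187 CPM in IDD (161 to 216). The ratio was 1.31 (1.13 to 1.53) for IDD+HID over IDD and 1.60 (1.37 to 1.87) for IDD+HTF over IDD. In Kupffer-like cells 20.4% of measured genes were higher in IDD+HID than in IDD, and 16.7% in IDD+HTF than in IDD. In cluster 3, the Kupffer-like cells led by Marco and Cd5l, these ratios were 1.42 (1.20 to 1.68) and 1.74 (1.48 to 2.05). In cluster 22, also Kupffer-like, they were 1.17 (0.73 to 2.02) and 1.06 (0.62 to 1.91). The class filled its clusters unequally: cluster 22 held 240 of 526 cells in IDD+HID, 29 of 377 in IDD+HTF and 8 of 78 in IDD, and cluster 24 held no cell of IDD. Sinusoidal endothelial-like cells had 105 CPM (99.3 to 111) in IDD+HID, 104 CPM (95.1 to 113) in IDD+HTF and 64.8 CPM (51.9 to 79.9) in IDD. There IDD+HID over IDD was 1.62 (1.30 to 2.04) and IDD+HTF over IDD was 1.60 (1.27 to 2.03), where 12.2% and 8.71% of measured genes were higher. Here too the libraries filled different clusters, with cluster 1 holding 268 of 1116 cells in IDD+HID, 272 of 746 in IDD+HTF and 249 of 326 in IDD. In cluster 1 the ratios were 1.90 (1.43 to 2.55) and 1.53 (1.14 to 2.08), in cluster 12 they were 2.46 (1.24 to 5.72) and 2.56 (1.28 to 5.98), and in cluster 9 their intervals, 0.89 to 2.49 and 0.89 to 2.64, held 1. Stellate-like cells had 85.1, 70.8 and 47.1 CPM in the same order. B-like cells had 3.54, 1.43 and 0 CPM, where the droplets' Hfe-to-Alb ratio and the Alb of these cells give 5.02, 3.03 and 1.46 CPM. Hfe was thus lowest in IDD in Kupffer-like, sinusoidal endothelial-like and stellate-like cells, though in stellate-like cells the interval of IDD+HTF over IDD (0.99 to 2.34) held 1.

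Of 47 other genes of the pathway, 22 had 50 or more UMIs in hepatocyte-like cells of IDD+HID and IDD together, and 7 of these were higher in IDD+HID and 4 lower. Over all measured genes 64.0% were higher and 12.3% lower, and with TMM 4 pathway genes were higher and 13 lower. Id3 and Id2, targets of BMP-SMAD signalling, were the 2 measured of 9 listed targets. Id3 stood at 220 CPM in IDD+HID, 33.7 CPM in IDD+HTF, against 22.6 CPM in IDD, and IDD+HID over IDD was 9.74 (5.77 to 17.7). Id2 stood at 358, 135 and 122 CPM in the same order, and IDD+HID over IDD was 2.93 (2.30 to 3.79). Its log2 ratio was 1.28, 0.15 and 1.11 in clusters 2, 6 and 7, and 0.92 in droplets, where the median of all genes was 0.92 too. That of Id3 was 5.25 in cluster 2, 1.75 in cluster 7 and 1.48 in droplets. Cluster 6 gave no ratio for Id3, since IDD held no Id3 UMI there. The cluster values rest on few UMIs, as IDD held 15 Id3 UMIs over all hepatocyte-like cells. Endothelial cells are known to express both genes as well. The summed markers of sinusoidal endothelial cells stood at 510 CPM in hepatocyte-like cells of IDD+HID, 192 CPM in IDD+HTF, against 30.1 CPM in IDD, and at 26869 CPM in sinusoidal endothelial-like cells of IDD+HID, and the part of such RNA in the levels of Id3 and Id2 was not tested. The median log2 ratio of the 2 targets was 2.42, beside 0.96 over all measured genes. Of 11 receptors and mediators of BMP signalling only Fkbp1a, which codes for a protein that binds type I receptors, was measured, at 2.16 (1.33 to 3.61).

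Of 7 measured genes of interleukin-6 and STAT3 input, 1 was higher in IDD+HID than in IDD and 3 were lower. The median log2 ratio of the list was -0.04, beside 0.96 over all measured genes, and with TMM it was -0.93 beside 0.06, with 1 gene higher and 6 lower. Jak1, a kinase of that pathway, was the higher one at 4.76 (2.52 to 9.93), with log2 ratios of -0.21, 2.40 and 2.02 in clusters 2, 6 and 7. The acute phase genes Saa1 at 0.35 (0.28 to 0.44), Saa2 at 0.39 (0.26 to 0.59) and Crp at 0.60 (0.49 to 0.73) were lower. Saa1 stood at 117 CPM in IDD+HID, 554 CPM in IDD+HTF, against 334 CPM in IDD. Within the clusters Crp did not keep its direction, with log2 ratios between 0.11 and 0.19, nor did Saa2, at 0.55 in cluster 6 and -2.86 in cluster 7, whereas Saa1 was lower in each, between -2.13 and -0.74. Of 5 measured transcription factors of hepcidin 3 were higher, a share close to the 64.0% of all measured genes, and with TMM 1 was higher and 1 lower. Cebpb stood at 3.17 (2.30 to 4.47) for IDD+HID over IDD. Hnf4a stood at 1.75 (1.21 to 2.57), a log2 ratio of 0.81 and so below the median of all genes. That ratio was -1.53, 0.32 and 1.60 in clusters 2, 6 and 7 and -0.27 in droplets. Of 7 measured partners and proteases of the sensors, Cp, the plasma ferroxidase ceruloplasmin, was lower at 0.57 (0.50 to 0.65), but its log2 ratio within the clusters was between 0.15 and 0.85. In IDD+HTF over IDD, 6 of 24 measured pathway genes were higher and 0 lower, where 18.3% and 14.4% of all measured genes were. They include Saa1, Il6st, Cebpb, Furin, a protease that cuts hemojuvelin, and Fgl1, a liver protein that binds BMP6, at 1.68 (1.39 to 2.03). Il6st did not keep its direction, with log2 ratios of 1.29, -0.004 and -1.51 in clusters 2, 6 and 7, nor did Furin, at -0.02, 0.97 and 1.49. Saa1, Cebpb and Fgl1 kept theirs in each cluster, though Fgl1 was at 0.05 in cluster 7.

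The genes whose pattern was most like that of Hamp, over the 9 sums of zone and library in hepatocyte-like cells and among 504 genes with enough UMIs, were Hspd1, Actb, Hao1, Pcbd1 and Hspe1, each with a Pearson correlation of 0.98 of log2(CPM + 20). Among those most like Hamp2 were Sord (0.82), Rps15 (0.81), Mat1a (0.79) and Sult2a8 (0.79), and Hamp and Hamp2 themselves had 0.51. The 9 sums share libraries, depth and RNA state, so these values are a description.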

How the data were processed

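The deposited files hold UMI counts per gene and barcode for 3 libraries, with gene names as GENCODE identifiers. The authors' counts are used as deposited; the submitters' processing notes name GRCm38 and Seurat 4, and which aligner and counter were used is not given in the sources used here. Cells were barcodes of 1000 or more UMIs and 300 or more genes, with mitochondrial UMIs up to 20%, and doublets were called with Scrublet. It marked 0.197% of IDD+HID, 0.187% of IDD+HTF and 2.02% of IDD cells and so did not work for the first 2 libraries. Cells of all libraries were clustered together (2000 variable genes, 30 components, 15 neighbours, resolution 1.0) with Python 3.11.15, scikit-learn 1.9.0 and igraph 0.11.9. Members and pathway genes were left out of the clustering. Clusters were named from marker lists, and clusters 4, 8, 20 and 23 stayed unnamed. The members and lists were chosen with earlier results of these data known.

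UMIs were summed per class and library and given as CPM with exact Poisson intervals. Ratios have exact conditional binomial intervals, and shares have Clopper-Pearson ones. No p-value was computed, because each group is 1 mouse. Ratios count as measured from 50 UMIs in the pair of libraries, and as higher or lower from 1.5-fold. Shares of cells were thinned to 1000 UMIs per cell. TMM factors came from edgeR 4.0.16 in R 4.3.3. On counts simulated with the Poisson error that the intervals assume, the intervals covered between 95.1% and 96.2% of unchanged genes. The simulation did not gather UMIs in single cells, so it cannot show the coverage in these data. Genes were named as the 6 members, pathway genes past 1.5-fold over IDD with an interval that leaves out 1, and the 5 most correlated with each hepcidin gene. Reads that match both hepcidin genes, or both a gene and its overlapping neighbour, could not be placed. A gene that the rule for likeness to Hamp2 also named is not reported here.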

Additional observations from a re-analysis of the deposited data

Results flagged for a closer look

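Hamp for IDD+HTF over IDD went in different directions in the clusters of hepatocyte-like cells, with log2 ratios of 1.18 in cluster 2, 1.56 in cluster 6 and -0.44 in cluster 7. The difference between the clusters was not tested. In cluster 7 the value became -0.06 without the richest cell of each library and 1.19 without the 2 richest.

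Barcodes of at least 1000 UMIs that the filters left out enter no comparison of the cells, and several genes stood above IDD in them. Hamp stood at 344 CPM in IDD+HID and 70.2 CPM in IDD+HTF, against 26.6 CPM in IDD. Hamp2 stood at 32.3 CPM in IDD+HID and 10.0 CPM in IDD+HTF, against 3.16 CPM in IDD. Tmprss6 stood at 88.7 CPM in IDD+HTF, against 54.8 CPM in IDD. Tfr2 stood at 45.0 CPM in IDD+HID, against 21.4 CPM in IDD. Hfe stood at 9.66 CPM in IDD+HID and 7.24 CPM in IDD+HTF, against 3.56 CPM in IDD.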

How the results depend on the processing

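No paired analysis was possible because each group is 1 library, and leaving out a replicate was not possible for the same reason. The zone alternative by cluster was not run, since clusters have no order along the lobule. The alternatives by cluster, without the deepest or richest cells and per marker UMI were chosen after seeing the data.

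Hamp for IDD+HID over IDD kept its direction in all 20 alternatives, with log2 ratios from 1.00 to 4.29 around 2.48. It was 2.14 with a minimum of 2000 UMIs, 3.23 and 1.85 with at most 50% and 10% mitochondrial UMIs, 1.58 with TMM, 1.70 with median-of-ratios, 2.03 without ribosomal, repeat and mitochondrial UMIs, 2.08 in cells with 5% marker UMIs, 2.33 as a mean over zones and 3.47 with each cell weighted alike. Clusters 2, 6 and 7 gave 3.89, 4.20 and 1.00, equal weight 3.03, removal of the deepest or richest cell 3.28, of the 2 richest 4.29, and marker UMIs 1.85. For IDD+HID over IDD+HTF (2.96) the direction held in all 20 too: TMM 1.95, median-of-ratios 2.09, without ribosomal, repeat and mitochondrial UMIs 2.50, marker cells 2.66, zones 2.70, cells alike 3.12, clusters 2.71, 2.63 and 1.44, equal weight 2.26, without the deepest or richest cell 3.26, without the 2 richest 3.27 and marker UMIs 2.19.

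For IDD+HTF over IDD (-0.48) the direction held in 12 of 20: minimum of 2000 UMIs -0.76, at most 50% mitochondrial UMIs 0.32, at most 10% -1.05, cells alike 0.35, clusters 2 and 6 1.18 and 1.56, equal weight 0.77, without the deepest or richest cell 0.021 and without the 2 richest 1.02. The cause of each change was not tested, beyond the cells removed. Log2 periportal over pericentral Hamp with zones of equal cell number within each library was 0.97 in IDD+HID and 1.89 in IDD, against 0.59 and 3.31. Log2 over free RNA was 3.14 in IDD+HID, 2.21 in IDD+HTF and 4.23 in IDD with barcodes of over 100 and up to 500 UMIs, and 2.63 in IDD with 50 or fewer. The values of IDD include its 2 cells rich in Hamp. Shares thinned to 2000 UMIs were 86.8%, 32.6% and 18.0%.

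Pathway genes higher in IDD+HID over IDD (7) numbered 4 with a minimum of 100 UMIs, 19 with none and 4 with TMM, and lower (4) 11 with none and 13 with TMM. Over IDD+HTF, 17 and 3 were higher (9) and 10 and 16 lower (6) with no minimum and with TMM. For IDD+HTF over IDD 13 and 10 were higher (6), and 4 were lower (0) with no minimum. Among the ratios past 1.5-fold with an interval that leaves out 1, other than those of Hamp, only the following turned round. Hamp2 for IDD+HTF over IDD did so in cluster 6 (-1.00), and Hjv for IDD+HID over IDD+HTF in cluster 7 (0.48). Tmprss6 for IDD+HID over IDD+HTF did so in cluster 2 (0.28), in cluster 7 (0.24) and with equal weight (0.12). In cluster 7, however, 20 of the 44 Tmprss6 UMIs of IDD+HID lay in a single cell. Without the richest cell of each library IDD+HID stood there at 35.8 CPM, below the 44.7 CPM of IDD+HTF. Of the smaller ratios, IDD+HID over IDD kept its sign in 16 of 20 alternatives for Tmprss6 (-0.57, range -1.47 to 0.91) and for Tfr2 (-0.27, range -1.16 to 1.52).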
